A study of Mus musculus with 4 samples.

Results

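The promoter mark H3K4me3, a trimethylated lysine of histone H3 found at active and poised promoters, was examined at 49 genes of the synaptic vesicle and of the SNARE fusion machinery. The members were a list of gene names, taken with their calcium sensors, recycling factors and ubiquitous paralogs, out of 21938 protein-coding genes of the GENCODE M21 annotation. A gene model on a chromosome was found for 48 of the 49, and Vamp7 was not analysed here. The mark was mapped by chromatin immunoprecipitation and sequencing in left cerebral cortex of adult female B6CASTF1/J mice, a first-generation hybrid of C57BL/6J and CAST/EiJ, aged 2 months, with no treatment named. There were 4 libraries, made as 2 technical replicates from each of 2 biological replicates. Replicate 1 was pool J and replicate 2 was pool I, and 4 cortex biosamples made up each. The labels gave the same donor record for all libraries and did not say whether different animals gave the biosamples, and part of the pool-to-pool spread may be technical.

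Synaptic vesicles fuse with the presynaptic membrane when the vesicle SNARE protein VAMP zips up with syntaxin and SNAP25 on the target membrane. Synaptotagmins sense the calcium that triggers this step, complexins clamp and promote it, and NSF with its SNAP adaptors takes the spent SNARE complexes apart for reuse. Most of these families hold neuronal genes beside paralogs that serve membrane fusion in every cell. H3K4me3 sits on nucleosomes around active start sites, and its domains are known to extend widely at genes of cell identity.

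The replicated list, called on both pools, held 25446 peaks, the pool J list 21573 and the pool I list 24508, and no read numbers were given, so the depth is unknown. Of the replicated peaks, 24595 had the same position and values in the list called on the pooled reads, so the replicated value beside those of the pools is not a further replicate. A promoter was called marked when a peak came within 1000 bases of any annotated start of the gene. Peaks up to 1000 bases apart were joined into a domain, and each gene was described by its widest domain and by the enrichment of the highest peak in it, a ratio given by the authors. Of the marker genes of neurons 6 of 6 were marked, among them Slc17a7 of glutamatergic cells (7933 bases) and Gad1 of GABAergic cells (4306 bases, with 2688 for pool J and 5538 for pool I), against 2 of 3 for astrocytes, 2 of 3 for oligodendrocytes, 2 of 2 for endothelium and 1 of 3 for microglia. The astrocyte gene Slc1a2 had 6748 bases and the endothelial gene Cldn5 4433, while Hbb-bt of red cells had no peak. The marked microglial gene, Cx3cr1, had 211 bases (enrichment 3.13) in the replicated list and no peak in either pool list. Another, P2ry12, had a peak in the pool I list alone (548 bases, enrichment 3.37). Of 3 genes marking cells outside the cortex, 1 was marked, Drd2 of striatal neurons, with 210 bases (enrichment 3.23) in the replicated list and no peak in either pool list. The tissue is a mixture, in which fewer cells of a type and less of the mark per cell cannot be told apart.

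Promoters of 46 of the 48 genes (95.8%) carried the mark in the replicated list, against 65.2% of all protein-coding genes. In the pool J list these were again 46 (63.9% of all genes), and in the pool I list 47 (64.8%). The exceptions were Cplx3 and Cplx4, complexins known from retinal ribbon synapses, though not necessarily expressed there alone. Cplx3 had a peak of 242 bases with an enrichment of 3.42 in pool I alone, at chr9:57606155-57606396 on mm10, and Cplx4 had none in any of the 3 lists. Cplx1 and Cplx2 stood apart from them. Cplx2 had a domain of 4482 bases (4526 in pool J, 4327 in pool I) with an enrichment of 12.4, and Cplx1 one of 2845 bases (2728 and 2950) with 15.2.

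Widths ran from 1022 to 7951 bases, with a median of 2842 and quartiles of 1958 and 3664, where all marked genes had a median of 2124 and quartiles of 1537 and 2966. Of the 46 marked members, 30 lay above the median of all marked genes. Their enrichment did not stand apart in the same way. It ran from 6.50 to 31.3 with a median of 20.1, against 20.6 for all marked genes, and 20 of 46 lay above that value. Across the members, Spearman's rho of width with enrichment was 0.369 (n = 46 genes, which are not independent replicates), and 0.397 across all 14293 marked genes.

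**Figure D1:**
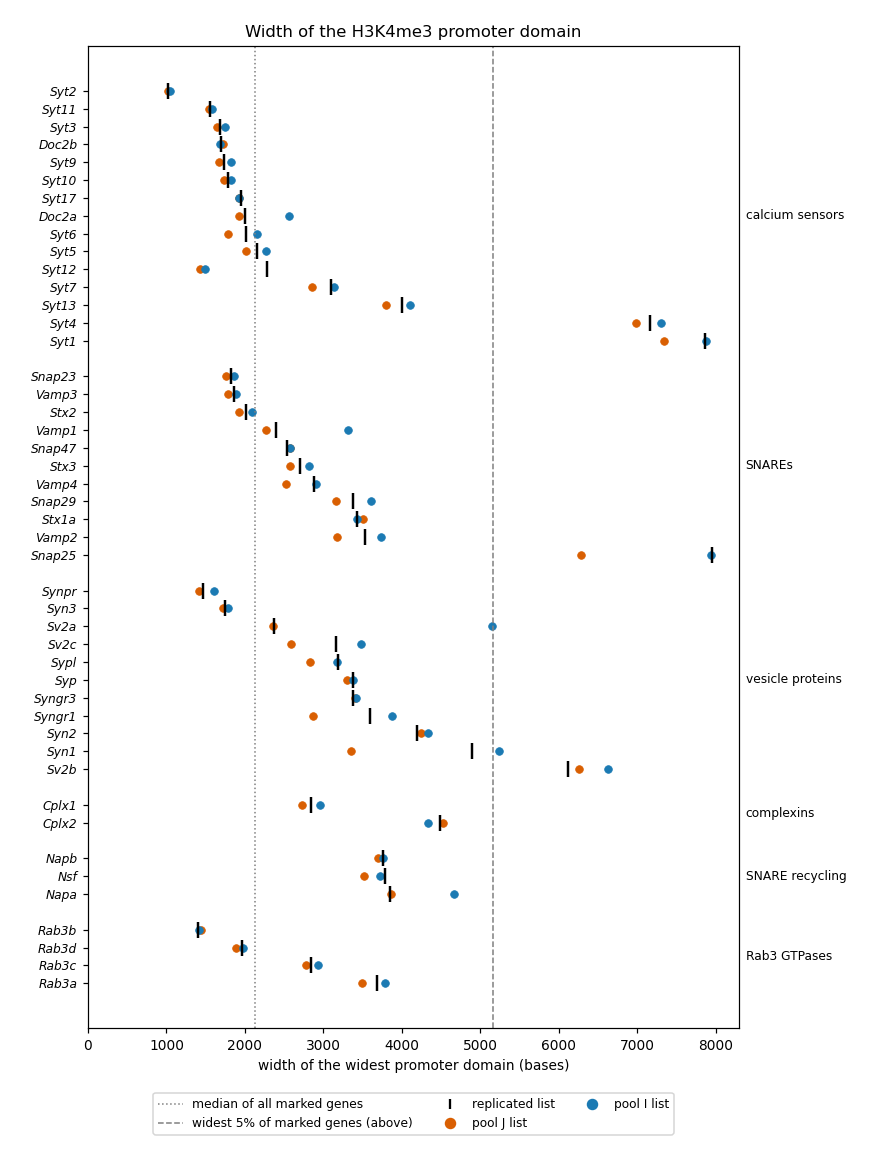
Width in bases of the widest H3K4me3 promoter domain of each marked gene, by role, in the pool J list (orange points), the pool I list (blue points) and the replicated list (black ticks). The dotted line is the median of all marked genes (2124 bases) and the dashed line the bound of the widest 5% (5166 bases), which Syt1, Syt4, Snap25 and Sv2b pass.

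Snap25, Syt1, Syt4 and Sv2b had the widest domains and were the only members in the widest 5% of marked genes (above 5166 bases). That is 4 of 46, or 8.70%, where 5% of all marked genes pass by construction. Each of the 4 also passed the corresponding bound within the pool J and the pool I list. Just outside lay Syn1 with 4899 bases and Cplx2 with 4482, and just inside lay Sv2b with 6116. With peaks left unmerged, only Snap25 and Syt1 passed, since the domains of Syt4 and Sv2b were built from several peaks. With peaks merged up to 3000 bases, Stx1a (6681 bases) and Vamp2 (13944) passed beside Snap25, Syt1 and Syt4, and Sv2b (6116) did not.

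Snap25 encodes the SNARE protein that contributes a pair of helices to the fusion complex. Its domain at chr2:136711583-136719533 spanned 7951 bases, with 6277 for pool J and 7942 for pool I (mean 7110 ± 1177, SD, n = 2 pools). The gap between the pools lay in weak flanking peaks. In pool J the domain was a single peak, and in pool I peaks of 312 bases (enrichment 4.37) and 803 bases (5.13) flanked a main peak of 6429 bases (23.7).

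Syt1 encodes the main sensor of fast, synchronous release in forebrain neurons. A single peak covered 7858 bases at chr10:109004321-109012178, with 7344 for pool J and 7878 for pool I (7611 ± 378, SD, n = 2 pools). Syt4, a synaptotagmin that does not trigger fast release, had 7163 bases, with 6985 and 7302 in the pools. Its domain joined a peak of 3501 bases at the start (enrichment 20.4) to one of 3445 bases further into the gene (6.21).

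The other 11 synaptotagmins had far narrower domains. Syt13, a member without calcium binding, came next with 3997 bases (3803 in pool J, 4107 in pool I), and Syt7, the slow high-affinity sensor, followed with 3102 (2857 and 3130). Syt12 had 2275 bases in the replicated list but 1431 and 1492 in the pools, which lacked a peak of 228 bases (enrichment 3.24) that was joined there. Syt5, Syt6, Syt17, Syt10, Syt9, Syt3 and Syt11 lay between 1560 and 2152 bases. Syt2, the fast sensor of hindbrain and of some interneurons, was the narrowest marked member with 1022 bases (1015 and 1047). Neither pool brought any of these 11 within 2000 bases of Syt4 at that merging distance. The gap to Syt4 did depend on merging. Without it Syt4 had 3501 bases and Syt7 3102, and with merging up to 3000 bases they had 7163 and 5802. Syt1 kept 7858 bases in both settings. The related sensors of spontaneous and asynchronous release, Doc2a and Doc2b, had 1995 bases (1925 and 2555) and 1700 bases (1715 and 1678).

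A wide synaptotagmin domain can lie on sequence poor in CpG and a narrow one on sequence rich in it, and a pair chosen after its values were seen is shown for this. The RefSeq promoters (GRCm38.p6, the mm10 assembly) of the widest, Syt1, at chr10:109010926-109011225 on the minus strand, and of a narrow one, Syt9, at chr7:107370540-107370839 on the plus strand, are shown 5′ to 3′ from 250 bases before the start, with every CpG in capitals. That of Syt1 held 8 CpG in 300 bases and that of Syt9 held 49, and the domain of Syt9 had 1736 bases (1675 in pool J, 1828 in pool I).
Syt1: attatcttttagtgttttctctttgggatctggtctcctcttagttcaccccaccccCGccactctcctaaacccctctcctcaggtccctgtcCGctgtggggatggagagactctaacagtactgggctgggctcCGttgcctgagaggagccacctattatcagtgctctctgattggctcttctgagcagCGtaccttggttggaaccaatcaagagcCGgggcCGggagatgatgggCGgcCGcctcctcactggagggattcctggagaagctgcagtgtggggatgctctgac
Syt9: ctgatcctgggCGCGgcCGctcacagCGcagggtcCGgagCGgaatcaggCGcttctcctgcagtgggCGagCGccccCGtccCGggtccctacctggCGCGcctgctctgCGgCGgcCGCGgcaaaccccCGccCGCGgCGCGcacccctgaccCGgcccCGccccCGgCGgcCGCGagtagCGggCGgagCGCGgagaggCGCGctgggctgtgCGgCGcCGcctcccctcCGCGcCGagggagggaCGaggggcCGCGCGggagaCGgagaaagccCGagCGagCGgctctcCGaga
Within 1000 bases of the start, the observed-to-expected CpG ratio was 0.411 at Syt1, 0.452 at Syt4 and 0.749 at Syt9. Over the 13 synaptotagmins, Spearman's rho of that ratio with width was -0.165, over the 46 marked members 0.033 and over all 14293 marked genes 0.404. These correlations are across genes and carry no test. Of the marked members, 30 of 46 lay below the median ratio of all marked genes (0.612).

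**Figure D2:**
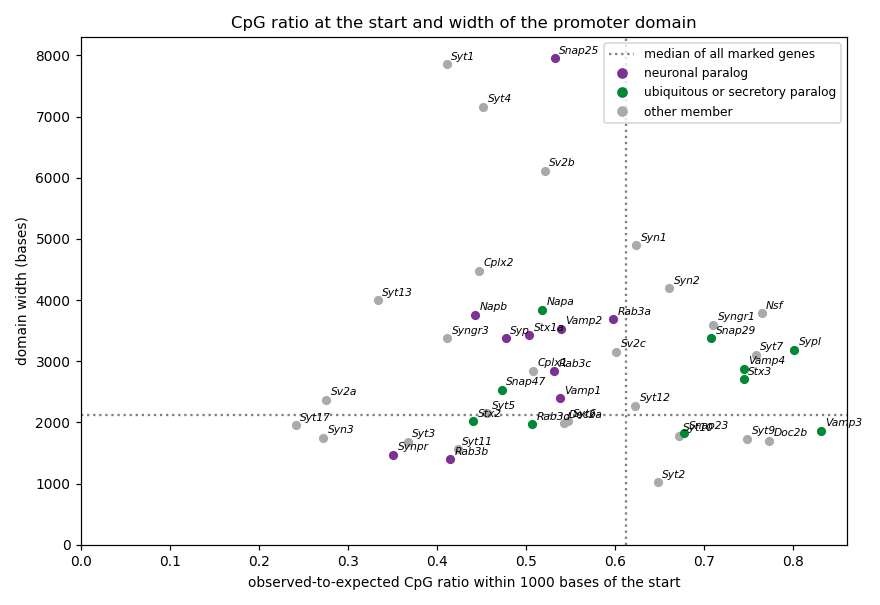
Observed-to-expected CpG ratio within 1000 bases of the start (horizontal) and width of the promoter domain in bases (vertical) for the 46 marked genes, replicated list, with neuronal genes of the 6 paralog families in purple, their ubiquitous or secretory paralogs in green and other members in grey. The 4 widest domains lie left of the dotted median ratio of 0.612, and Vamp3 has the highest ratio (0.831) with 1862 bases.

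The neuronal genes were next set beside ubiquitous paralogs within 6 families (SNAP25, syntaxin, VAMP, the SNAP adaptors, Rab3 and synaptophysin), which gave 15 pairs. In the Rab3 family the other member, Rab3d, is a gene of secretory cells rather than a ubiquitous one. The neuronal gene had the wider domain in 11 of 15 pairs in the replicated list. It was the wider in 11 pairs by the pool J list and in 12 by the pool I list. Median width was 3400 bases over 10 neuronal genes and 2622 over 10 others, a ratio of 1.30 (1.27 in pool J, 1.26 in pool I). Enrichment showed no such lean. It was higher in the neuronal gene in 7 of 15 pairs (8 in pool J, 9 in pool I), with medians of 20.1 and 23.8. Pairs within a family share genes, so the counts are a description with no test.

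The SNAP25 family showed the widest contrast at the merging distance of 1000 bases. Snap23, which does the work of Snap25 in non-neuronal cells, had 1824 bases (1753 in pool J, 1860 in pool I), so that the Snap25 domain was 4.36 times as wide (3.58 in pool J, 4.27 in pool I). That contrast depended on the merging distance, since at 3000 bases Snap23 had 6020 bases and Snap25 7951, while Vamp2 had 13944 and Vamp3 1862. Snap29 had 3376 bases (3160 and 3607) and Snap47 2537 (2569 and 2570). Both domains also covered the start of a divergent neighbour, Pi4ka at Snap29 and Jmjd4 at Snap47, so the width cannot be assigned to one gene. The enrichment of Snap25 (20.3, with 21.4 for pool J and 23.7 for pool I) lay close to that of Snap23 (20.0, 20.1 and 20.1), which it exceeded slightly in each list, and below that of Snap47 (29.8, 29.7 and 27.9).

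Among syntaxins, the target-membrane SNAREs, Stx1a of neurons had 3424 bases (3502 in pool J, 3425 in pool I). Stx2 had 2018 (1921 and 2089) and Stx3 2706 (2570 and 2813), both below Stx1a in each list. The gap to Stx3 depended on merging. Stx1a had 2828 bases without merging or with peaks of −log10 q 10 or more, and 6681 with merging up to 3000 bases. Stx3 kept 2706 in these settings. The enrichment of Stx1a was 24.6, with 30.1 for pool J and 25.9 for pool I. Stx2 stood lower at 16.5 (18.03 and 22.5). Stx3 was close to Stx1a, at 25.3 in the replicated list, and below it within each pool (23.7 and 25.5).

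In the VAMP family, the vesicle SNAREs, Vamp2, the main form of forebrain synapses, had 3535 bases (3167 in pool J, 3730 in pool I). It was wider than the ubiquitous Vamp3 (cellubrevin) with 1862 (1788 and 1880) and than Vamp4 of the Golgi and endosomes with 2877 (2525 and 2902), in both pools. Vamp1, the form of hindbrain, spinal cord and some cortical neurons, had 2395 bases (2262 and 3310). It was wider than Vamp3 in every list, but wider than Vamp4 in pool I alone of the 3 lists. Vamp2 had the highest enrichment of all members at 31.3 in the replicated list, though it had 24.9 for pool J and 29.8 for pool I. It was the highest member in neither pool list, where Stx1a (30.1) led in pool J and Napa (31.4) in pool I.

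Among the SNAP adaptors the neuronal form was not the wider one in the replicated list or either pool list. Napb, the brain form, had 3762 bases (3699 in pool J, 3761 in pool I), and Napa, the ubiquitous form, 3843 (3866 and 4659). The direction turned without merging, where Napb had 3762 bases and Napa 1472, and with peaks of −log10 q 10 or more, where they had 3762 and 2747. Nsf, the ATPase they recruit, had 3786 (3512 and 3719). Napa reached an enrichment of 31.1 in the replicated list, but its pools lay far apart, at 21.4 for pool J and 31.4 for pool I, and Napb, with 22.1 and 19.9, was the higher of the pair in pool J.

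The promoters of this pair are shown because they carried domains of similar width in the replicated list on sequence that differed in CpG. That of Napb lies at chr2:148732371-148732670 on the minus strand with 13 CpG, and that of Napa at chr7:16098330-16098629 on the plus strand with 25 (RefSeq, GRCm38.p6, CpG in capitals).
Napb: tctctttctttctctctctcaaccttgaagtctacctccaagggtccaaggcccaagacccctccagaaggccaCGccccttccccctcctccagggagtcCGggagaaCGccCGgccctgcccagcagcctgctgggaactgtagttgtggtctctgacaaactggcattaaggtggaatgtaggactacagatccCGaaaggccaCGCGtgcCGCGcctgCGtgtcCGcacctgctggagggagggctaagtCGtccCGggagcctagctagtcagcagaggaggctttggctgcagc
Napa: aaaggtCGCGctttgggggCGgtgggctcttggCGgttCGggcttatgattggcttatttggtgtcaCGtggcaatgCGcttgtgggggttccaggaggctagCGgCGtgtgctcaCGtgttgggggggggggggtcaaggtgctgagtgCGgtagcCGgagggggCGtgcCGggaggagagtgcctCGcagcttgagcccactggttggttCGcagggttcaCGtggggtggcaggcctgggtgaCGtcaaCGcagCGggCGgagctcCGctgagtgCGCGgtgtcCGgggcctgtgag

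Rab3 proteins are GTPases of secretory vesicles. Rab3a, the most abundant form in brain, had 3685 bases (3497 in pool J, 3789 in pool I) and an enrichment of 28.2 (29.8 and 25.6). Rab3c had 2839 bases (2772 and 2927) and Rab3d 1968 (1880 and 1979), while Rab3b had 1400 (1441 and 1416) and an enrichment of 12.8 (11.2 and 10.03). The order of width was the same in each list, with Rab3b as the one neuronal form below Rab3d. The place of Rab3a above Rab3c depended on the setting. Without merging, or with peaks of −log10 q 10 or more, Rab3a had 2130 bases and Rab3c 2839. Rab3c, Rab3d and Rab3b kept their widths in these settings, so Rab3a remained above Rab3d and Rab3b below it.

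Synaptophysin, encoded by Syp, is an abundant membrane protein of the vesicle, and Sypl is its ubiquitous relative. Their widths were close, with 3375 bases at Syp (3305 in pool J, 3377 in pool I) and 3184 at Sypl (2824 and 3172). In enrichment Syp stood far lower, with 11.001 (11.1 and 11.4) against 21.5 at Sypl (23.2 and 21.9). Syp lies on the X chromosome and Sypl on chromosome 12. An effect of X linkage in these female mice cannot be told apart from one of the gene, and was not tested. Synpr, which encodes synaptoporin, had 1469 bases (1420 and 1604) and 8.45 (7.01 and 9.31), below Sypl in both measures and in each list.

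Promoters of this family are shown for the same contrast in CpG. That of Syp lies at chrX:7638330-7638629 on the plus strand and held 18 CpG, and that of Sypl at chr12:32953695-32953994 on the plus strand held 24 (RefSeq, GRCm38.p6, CpG in capitals).
Syp: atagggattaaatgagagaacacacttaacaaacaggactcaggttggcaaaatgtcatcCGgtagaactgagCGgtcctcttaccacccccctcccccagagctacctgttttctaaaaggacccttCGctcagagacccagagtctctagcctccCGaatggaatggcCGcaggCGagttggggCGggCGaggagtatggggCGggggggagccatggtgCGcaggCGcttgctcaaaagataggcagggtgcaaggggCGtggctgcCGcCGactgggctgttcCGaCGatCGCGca
Sypl: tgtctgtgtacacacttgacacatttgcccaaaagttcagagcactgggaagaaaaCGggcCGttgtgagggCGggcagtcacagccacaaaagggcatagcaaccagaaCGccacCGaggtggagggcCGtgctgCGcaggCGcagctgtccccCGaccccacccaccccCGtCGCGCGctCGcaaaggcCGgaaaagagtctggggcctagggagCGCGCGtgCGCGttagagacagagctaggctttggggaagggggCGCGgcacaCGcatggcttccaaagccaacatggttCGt
Over the 6 families, the CpG ratio within 1000 bases of the start was lower in the neuronal member in 11 of 15 pairs, with medians of 0.518 and 0.693. Of the 11 pairs in which the neuronal gene had the wider domain, it had the lower ratio in 7. In each of the remaining pairs, where the neuronal gene was not the wider, its ratio was the lower too. The lower ratio was thus no more frequent among the wider pairs.

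**Figure D3:**
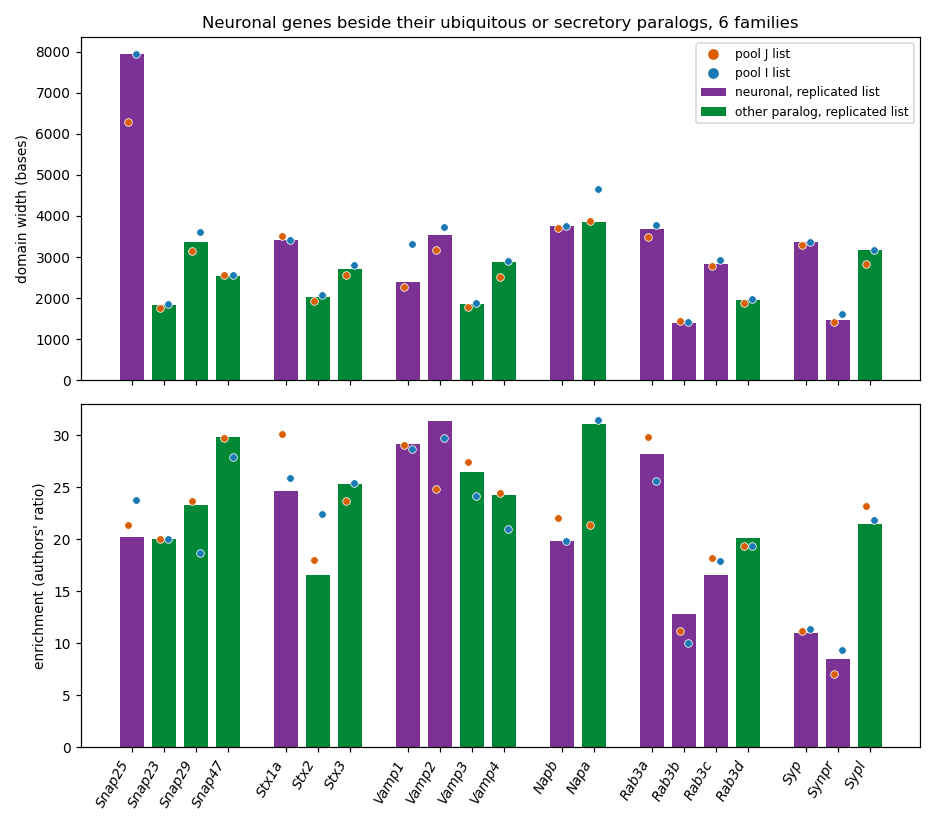
Width of the promoter domain in bases (top) and enrichment as the authors' ratio (bottom) for neuronal genes (purple) and their ubiquitous or secretory paralogs (green) in 6 families, as bars for the replicated list with points for pool J (orange) and pool I (blue). Snap25 exceeds its 3 paralogs in width, while in enrichment its bar lies near that of Snap23 and below those of Snap29 and Snap47, and Syp and Synpr have the lowest bars in the lower panel (11.001 and 8.45).

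The synapsins tether vesicles to each other and to actin, and their domains differed widely. Syn2 had 4193 bases and hardly varied between pools (4243 in pool J, 4337 in pool I). Syn1 had 4899, with its pools apart at 3350 for J and 5238 for I (4294 ± 1335, SD, n = 2 pools). Syn3 had 1747 (1719 and 1790), with an enrichment of 24.7 that was above that of Syn1 (15.3). Syn1 lies on the X chromosome and Syn3 on chromosome 10, and an effect of X linkage was not tested here either.

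The SV2 proteins are transporter-like glycoproteins of the vesicle, and Sv2a binds the drug levetiracetam. Sv2b had 6116 bases (6254 in pool J, 6630 in pool I) in 3 peaks. Sv2a had 2366, with 2357 for pool J but 5146 for pool I (3752 ± 1972, SD, n = 2 pools), where peaks of 532 bases (enrichment 4.18) and 739 bases (4.09) joined the main one. Sv2c had 3159 (2589 and 3485) and an enrichment of 9.98 (8.25 and 11.2). The synaptogyrins followed, Syngr3 with 3375 bases (3406 and 3411) and Syngr1 with 3599 (2863 and 3871), a domain that also covered the start of the ribosomal protein gene Rpl3.

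Between the pools, 42 of 46 domains (91.3%) were wider in pool I, as were 76.6% of all genes marked in both. The median pool I width was 1.07 times that of pool J for the members and likewise for all genes. Syn1 (1.56) and Sv2a (2.18) alone differed by more than 1.5-fold, 4.35% of the members against 4.78% of all genes. Enrichment differed widely at Syt13, at 21.9 for pool J and 12.4 for pool I, and at Napa, at 21.4 and 31.4. Spearman's rho between the pools over the 46 members was 0.941 for width and 0.885 for enrichment.

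**Figure D4:**
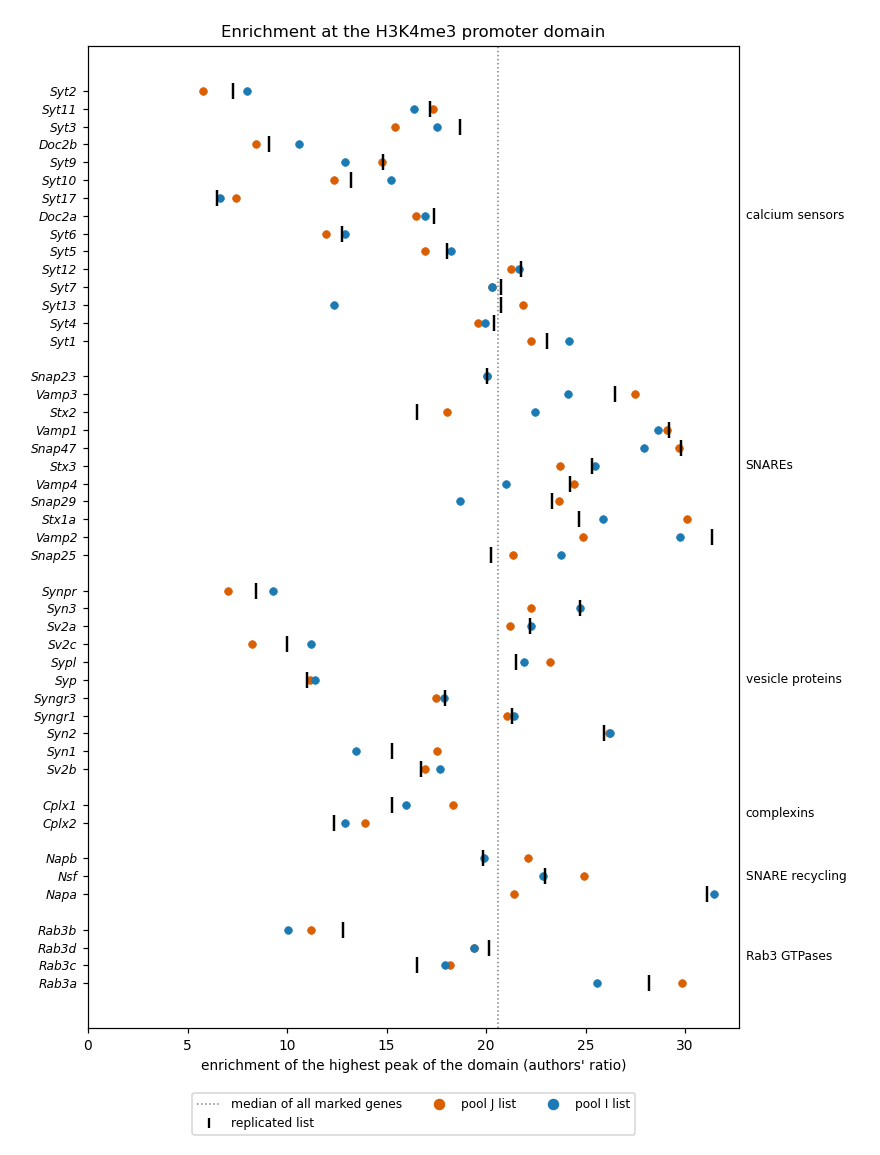
Enrichment of the highest peak in the widest promoter domain (the authors' ratio) of each marked gene, by role, in pool J (orange), pool I (blue) and the replicated list (black ticks). The dotted line is the median of all marked genes (20.6), and Syt13 and Napa show the widest gaps between pools.

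Several genes had a further promoter domain at or within 1000 bases of another annotated start, 7 of 46 (15.2%) against 9.45% of all marked genes. At Syt2 the second domain lay 62623 bases downstream at chr1:134708810-134709740, with 931 bases and an enrichment of 12.5 against 7.27 in the widest one. Syt17 likewise had its higher enrichment, 12.9 against 6.50, in a domain of 1547 bases at the 5′-most start, and its widest domain 4662 bases further in. At Syt11 the widest domain (1560 bases, enrichment 17.2) lay at a start 2565 bases inside the gene, and one of 1004 bases (13.2) at the 5′-most start. Both domains of these 3 genes were present in each pool. The other 4 second domains were those of Vamp1 (1095 bases, over a start of Tapbpl), Syn2 (755, over the start of Timp4), Stx1a (359) and Syn3 (323). Their enrichment was 14.6, 3.55, 2.93 and 3.08, in that order. Those of Syn2 and Stx1a covered no start of their own gene and were absent from pool J. That of Syn3 was absent from pool I.

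Domains lay mainly downstream of the start. Distances were measured from the 5′-most start that the domain covered or came within 1000 bases of, which at Napa lay just outside the domain. In the replicated list the members had a median of 497 bases upstream and 2066 downstream, against 597 and 1370 for all marked genes. In 45 of 46 members the downstream side was the longer (97.8%, and 85.2% of all marked genes). The exception was Snap29, with 2219 bases upstream, towards Pi4ka, and 1156 downstream. The 4 widest domains reached between 5907 and 6661 bases into the gene, and at most 1870 bases upstream, at Snap25.

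**Figure D5:**
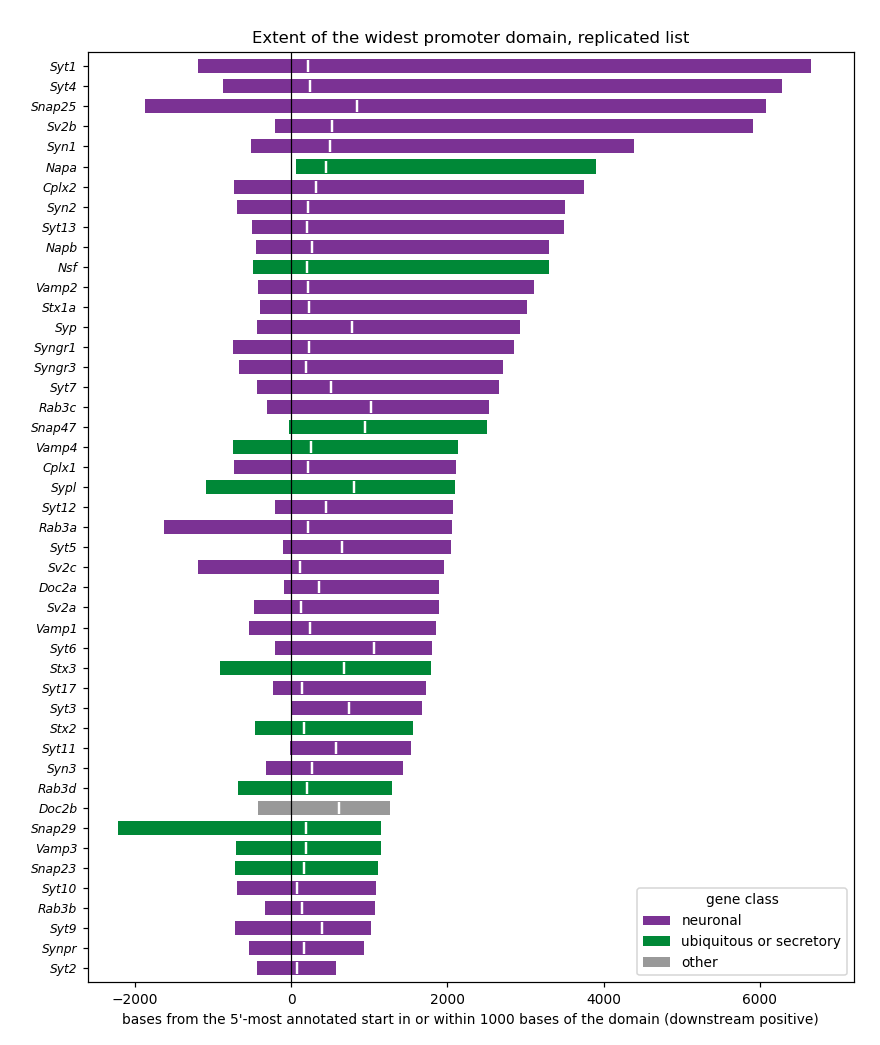
Extent of the widest promoter domain of each marked gene in bases from the 5′-most annotated start it covers or comes within 1000 bases of (0), replicated list, with the summit of the highest peak as a white tick and gene class as bar colour. Rows are ordered by downstream reach, from 6661 bases at Syt1 to 580 at Syt2, and Snap29 is the one bar with more bases upstream.

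Many neuronal genes are known targets of the repressor REST, which holds them silent outside neurons. Its element was searched as CAGCACC followed after 2 bases by GGACAG, on both strands, within 1000 bases of the start. It was found at Snap25, Syp and Syt4, 3 of 46 marked members (6.52%), against 0.329% of all marked promoters. In the paralog families it lay at 2 of 10 neuronal genes and at none of the 10 ubiquitous or secretory ones. At a share so low over all promoters, these counts are too small to set the groups apart. Snap25 held 2 copies, centred 844 and 894 bases after the start. The summit of its domain lay 844 bases after the start in the replicated list, but at 797 by the pool J list and 214 by the pool I list. At Syt4 the match lay 217 bases after the start and the summit at 236 (256 in pool J, 236 in pool I), and at Syp the match lay at 275 and the summit at 774 (773 and 748). These matches are letters in a window and no measure of binding. No mismatch was allowed, so an element that differed by a single base was not counted. The site of Syp is at chrX:7638736-7638756 on the plus strand of mm10, with the searched letters in capitals.
Syp element: ctcCAGCACCgtGGACAGagc
The cAMP response element TGACGTCA lay within the 300 bases of the promoter window at Snap25, Syn1 and Vamp3, 6.52% of marked members and 3.36% of all marked promoters. The hexamer TATAAA lay there at Snap25, Stx3, Sv2b and Rab3b (8.70%, and 7.14% of all), and the GC box GGGCGG at 33 of 46 (71.7%, and 61.6% of all).

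The unmarked Cplx3 had a promoter poor in CpG, with a ratio of 0.334 within 1000 bases of the start, and Cplx4 had 0.394. The median of all marked genes was 0.612 and that of all unmarked genes 0.169. Syt17, Syn3, Sv2a and Syt13 were marked at ratios no higher than that of Cplx3 (0.241, 0.272, 0.275 and 0.333). The RefSeq promoter of Cplx3 at chr9:57606232-57606531 on the minus strand (GRCm38.p6) is shown as that of a member without a replicated peak, with its 11 CpG in capitals.
Cplx3: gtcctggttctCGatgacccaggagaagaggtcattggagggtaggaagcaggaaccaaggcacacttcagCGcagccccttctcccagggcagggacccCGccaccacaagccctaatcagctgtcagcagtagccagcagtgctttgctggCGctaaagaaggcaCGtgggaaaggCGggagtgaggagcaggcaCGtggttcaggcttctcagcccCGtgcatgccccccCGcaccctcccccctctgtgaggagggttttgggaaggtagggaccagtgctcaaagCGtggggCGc

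Of 24 further SNARE genes, which serve the Golgi, endosomes and plasma membrane, 23 were marked in each of the 3 lists, and Stx19 was not. Their median width was 1917 bases and none lay in the widest 5%. Of 30 further genes of vesicles and C2 domain proteins, 24 were marked in each list, with a median of 2478 bases. Stxbp5, which encodes the syntaxin-binding protein tomosyn, was the one in the widest 5%, with 5222 bases (5188 in pool J, 5335 in pool I). The unmarked were Syt8, Syt15, Sytl1, Sytl3, Sytl5 and Doc2g.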

How the data were processed

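H3K4me3 ChIP-seq of 2 pools (4 libraries) was deposited by the authors as 4 peak lists on mm10, per the labels and the deposited text files, 1 list per pool, 1 on the pooled reads and 1 termed replicated. Aligner, peak caller, settings and read numbers were not given in the sources used here. The authors' deposited enrichment is a ratio, taken as fold over control, and is used only to describe and rank peaks. The −log10 q values that the authors deposited served as filters in alternatives only, and the deposited display score was not used. Peak positions, in bases, were deposited counted from 0 and are given here counted from 1.

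Gene starts came from GENCODE M21 on the same assembly. Windows of 1000 bases either side of any start, an overlap of at least 1 base and a merging distance of 1000 bases defined domains. Calls were checked on simulated data. Sequence came from the GRCm38.p6 genome, and for 34 members the nearest entry under the gene name in the RefSeq promoter table was taken for printing. That of Cplx2 lay 68793 bases from the start used and is not the promoter described here. Entries for Syt4, Syt5, Syt7, Syt12, Syt13, Syt17, Snap25, Vamp2, Vamp3, Vamp7, Syn3, Cplx4, Syngr3, Doc2a and Doc2b were missing or not used. Python 3.11.15, numpy 2.4.6 and scipy 1.17.1 were used. Members, lists and families were chosen with earlier results of these data known. All members of the 6 families and the complexins were named, and of the rest the unmarked, the 5 widest, narrowest, most and least enriched, those with several domains or pools that differed over 1.5-fold, and others where their role was described. Each list gives 1 value per pool, so values are given by pool, some with their mean ± SD (n = 2), and nothing was tested for significance. Alternatives were 12 settings of list, window, overlap, merging and q, and others for single results. Leaving out domains shared with another coding start, and the alternatives for the 2 further lists, were chosen after seeing the data.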

Additional observations from a re-analysis of the deposited data

How the results depend on the processing

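Of 104 recomputed values, 89 stayed within 1.5-fold for counts or within the spread of the pools for other values, and 15 moved further. The widest-5% count fell from 4 to 2 without merging, and the median width of 2842 bases became 2246 without merging, 3171.5 with merging up to 3000 bases and 2579 with peaks of −log10 q 10 or more, with 2579.5 and 2950 in the single pools. The paralog width ratio of 1.30 became 1.16 without merging, 1.26 with merging up to 3000 bases, 1.08 with peaks of −log10 q 10 or more, 1.34 with summed domains, 1.27 without the Rab3 family and 1.44 without members that share a domain (Syt3, Snap29, Snap47, Syngr1), and was 1.26 to 1.27 in the single pools. The enrichment ratio of 0.843 was 0.927 and 0.983 in them. The causes were not tested beyond what each setting changes by its construction. In 10 of 15 pairs the neuronal gene was wider under each of the 12 settings of list, window, overlap, merging and q as well as in the main setting. The unknown read depth limits weak and absent peaks. No paired analysis was possible because both technical replicates of a pool enter 1 list and the replicate numbers are those of libraries within a pool.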

Other observations

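In the replicated list, the summit of the highest peak lay downstream of the start in each of the 46 marked members, against 85.8% of all marked genes, with a median distance of 238 bases (224 over all). Within the pool lists it lay upstream at Cplx1 in pool J (-233 bases) and at Syt9 (-185), Snap29 (-409) and Cplx3 (-38) in pool I. In the replicated list the distance was longest at Syt6 (1067 bases), Rab3c (1028), Snap47 (948) and Snap25 (844). For Rab3c and Snap47 the GENCODE start used lay 790 and 1152 bases from the nearest start of the RefSeq promoter table. From those RefSeq starts the summits lay 238 bases downstream at Rab3c and 204 bases upstream at Snap47. At Syt6 both annotations put the start within 14 bases of each other, and the summit lay 1053 bases downstream of the RefSeq start.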
